A study of Mus musculus with 4 samples.

Results

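The genes described here are 10 core components of the cell cycle engine, fixed by name: the D cyclins Ccnd1, Ccnd2 and Ccnd3, the E cyclins Ccne1 and Ccne2, the A cyclin Ccna2, the B cyclins Ccnb1 and Ccnb2, and the cyclin-dependent kinases Cdk1 and Cdk2. All 10 were found by symbol among the 26561 genes of the count table, and all 10 passed the filter on low counts that left 15298 genes for testing. RNA was sequenced from MC38, a tumour line established from a colon carcinoma of the mouse, labelled wild type and epithelial. The 2 unirradiated libraries come from cells without treatment, and the 2 irradiated libraries from cells given a single X-ray fraction of 30 Gy and taken 60 h later. Both groups carry the same wild-type genotype. The sources used here give no harvest time for the unirradiated cells, so time in culture cannot be told apart from irradiation.

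Cyclins are the regulatory subunits that switch on cyclin-dependent kinases. D cyclins, made in response to growth factors, activate Cdk4 and Cdk6 in G1, and with cyclin E and Cdk2 they inactivate the retinoblastoma protein and release E2F transcription factors at the entry to S phase. Cyclin A2 works with Cdk2 in S phase and with Cdk1 in G2, and the B cyclins with Cdk1 drive mitosis. Several of these messages rise and fall with the phase of the cycle, so their level in a culture depends both on the share of cells in each phase and on the amount of RNA per cell. These cannot be told apart in bulk RNA.

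Total counts per library ran from 26059171 to 29881492, and the genes described here held between 135 and 25352 counts each in a library. The labels do not say that replicates are separate cultures, so a p-value here reflects only how far these libraries differ, possibly for technical reasons. For 90.0% of the tested genes the spread was taken from a trend over all genes. More genes had a count above 0 in the irradiated libraries (22663 and 22713) than in the unirradiated ones (19413 and 19531), and mitochondrial transcripts held 2.56% and 2.59% of counts against 2.19% and 2.27%. Of 9 epithelial markers only Cdh1 and Krt19 reached a mean of 1 CPM (counts per 1000000 of the scaled library size) over the libraries. Epcam, Krt7, Krt8, Krt18, Krt20, Cldn4 and Cldn7 had means below it, though Krt8 reached 1.01 CPM in irradiated replicate 1. The epithelial list summed to 36.9 and 38.7 CPM in unirradiated and 70.3 and 76.0 CPM in irradiated libraries. The label therefore rests on few markers here. Of 9 mesenchymal and fibroblast markers 8 reached 1 CPM (Thy1 did not), Vim stood highest at a mean of 3925 CPM, and the list summed to 5348 and 5371 CPM against 6023 and 6082 CPM. Summed over 5 leukocyte markers the level was 4.11 to 4.99 CPM in unirradiated and 33.1 to 39.2 CPM in irradiated libraries. Nearly all of it was Cd68, whereas Itgam was not analysed here and Ptprc, Cd3e, Adgre1 and Lyz2 stayed below 1 CPM on average. Endothelial markers (1 of 3 reached 1 CPM, Pecam1) summed to 1.78 to 2.58 CPM in unirradiated and 5.37 to 5.69 CPM in irradiated libraries, and erythroid markers stayed below 1 CPM, the highest being Hba-a1 at a mean of 0.234 CPM. The part of these shifts in the results was not tested.

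Relative to the library, irradiated cells held less message for the cyclins of G1 and of S phase entry and more for the cyclins of mitosis. All D cyclins, both E cyclins and Cdk2 fell, Ccnb1, Ccnb2 and Cdk1 rose, and Ccna2 did not pass the test. Of the 10 genes, 6 fell and 3 rose at a Benjamini-Hochberg adjusted p under 0.05 in edgeR's quasi-likelihood test. A change was called for 60.7% of all tested genes (30.4% higher, 30.3% lower) and for 72.7% of the genes that reached 10 CPM, a level that all 10 reach (29.5% higher, 43.2% lower). Against a minimum of 1.2-fold the same 9 genes passed, where 39.1% of all tested genes did (20.8% higher, 18.2% lower). When each change was instead tested against a minimum of 1.5-fold, an alternative chosen after seeing the data, 6 of the 10 genes passed (Ccnd1, Ccnd2, Ccne1 and Ccne2 lower, Ccnb1 and Ccnb2 higher), where 18.5% of all tested genes did (12.5% higher, 5.96% lower). The median absolute log2 fold change was 0.81 over these genes and 0.39 over all tested genes.

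**Figure D1:**
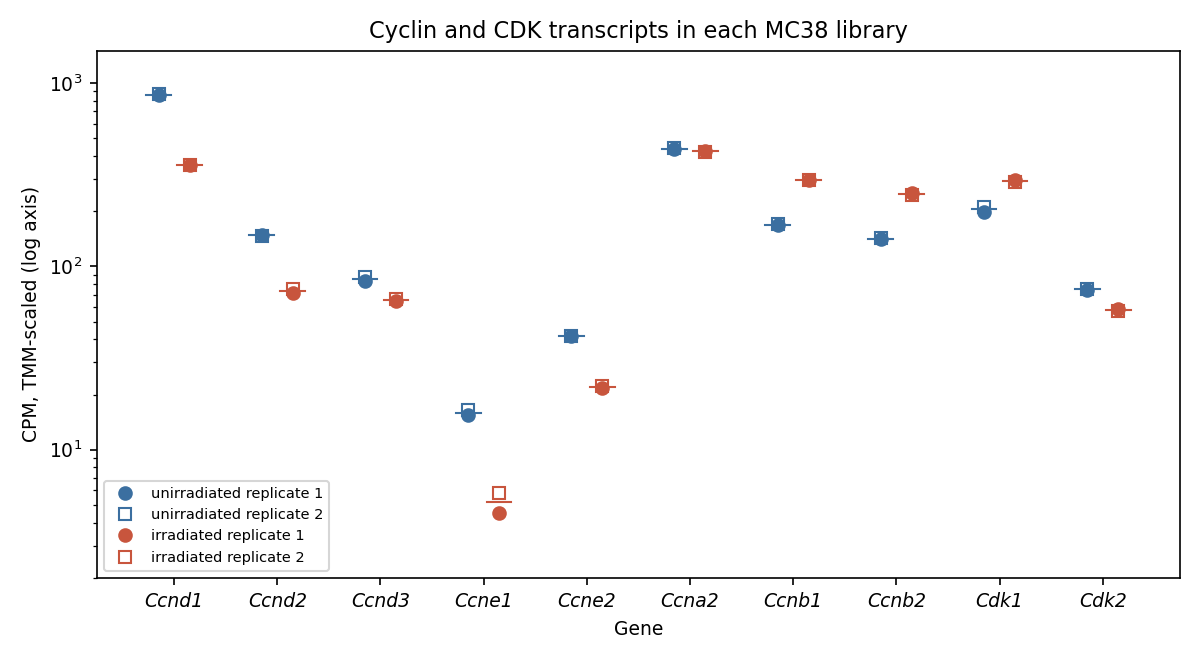
Level of each gene in each of the 4 libraries, in CPM on a log axis; filled circles are replicate 1, open squares replicate 2, and short lines the group means. Irradiated libraries (red) lie below unirradiated ones (blue) for the D cyclins, E cyclins and Cdk2 and above them for Ccnb1, Ccnb2 and Cdk1, while those of Ccna2 lie close together.

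Cyclin D1 was the D cyclin of this line by amount. Ccnd1 (ENSMUSG00000070348, GRCm38 chromosome 7, 144929931 to 144939925, minus strand) stood at 859.6 and 868.4 CPM in the unirradiated libraries and at 358.8 and 356.4 CPM in the irradiated ones. Both irradiated values lie far below both unirradiated ones, and libraries of a group differ by little. The fall was 2.42-fold (log2 fold change -1.27 with SE 0.03, adjusted p below 1e-300 in edgeR). Only 2.08% of tested genes had a lower log2 fold change, although Ccnd1 is itself more abundant in CPM than 98.8% of them.

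Ccnd2 (ENSMUSG00000000184, chromosome 6, 127125162 to 127152193, minus strand), which shares the kinase partners of cyclin D1, went from 148.4 and 147.3 CPM to 71.65 and 75.15 CPM. Its groups do not overlap either. The fall was 2.01-fold (log2 fold change -1.01, SE 0.05, edgeR adjusted p = 4.36e-89). Ccnd3 (ENSMUSG00000034165, chromosome 17, 47505051 to 47599691, plus strand), the third D cyclin, moved least, from 82.71 and 88.03 CPM to 64.57 and 66.30 CPM. The fall was 1.31-fold (log2 fold change -0.38, SE 0.06, edgeR adjusted p = 2.54e-11), too small to pass against 1.5-fold. Exons of Ccnd3 overlap 361 bases of Bysl on the other strand, a gene that holds 48.6% as many counts and itself fell with a log2 fold change of -1.06 (SE 0.08). The sources used here do not say how reads in the shared stretch were assigned, so the value of Ccnd3 carries that limit.

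The smaller fall of Ccnd3 shifted the makeup of the D cyclin pool. Within a library, and in CPM per kb of annotated exons, Ccnd1 made up 87.9% and 87.8% of the D cyclin transcripts in unirradiated cells and 83.6% and 83.0% in irradiated ones. Ccnd3 rose from 4.54% and 4.77% of the pool to 8.07% and 8.28%, while Ccnd2 took 7.59% and 7.45% before and 8.35% and 8.76% after. The order of Ccnd2 and Ccnd3 in irradiated libraries depends on the length used. By the longest annotated transcript, Ccnd3 stood there at 0.174 and 0.180 of Ccnd1, and Ccnd2 at 0.118 and 0.125. The share of Ccnd3 also carries the limit of its overlap with Bysl. Cyclin D1 thus remained the main D cyclin in all 4 libraries. The summed D cyclin level was 207.7 and 210.1 CPM per kb in unirradiated libraries and 91.16 and 91.23 CPM per kb in irradiated ones.

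Cyclin E1 showed the steepest fall of the 10 genes. Ccne1 (ENSMUSG00000002068, chromosome 7, 38097984 to 38107534, minus strand), whose product binds Cdk2 at the start of S phase, stood at 15.50 and 16.37 CPM in unirradiated and 4.54 and 5.80 CPM in irradiated libraries. It is also the scarcest of them, with 426 and 478 against 135 and 154 counts, and its irradiated libraries differ from each other by more, in proportion to their level, than those of the other 9 genes do. The fall was 3.09-fold (log2 fold change -1.63, SE 0.16, edgeR adjusted p = 1.97e-24), and 0.882% of tested genes had a lower log2 fold change. Leaving out 1 irradiated library moved the log2 fold change to -1.46 without replicate 1 and to -1.82 without replicate 2.

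Its relative Ccne2 (ENSMUSG00000028212, chromosome 4, 11191351 to 11204779, plus strand) fell 1.91-fold, from 41.63 and 41.96 CPM to 21.57 and 22.15 CPM. Its log2 fold change was -0.94 (SE 0.09, edgeR adjusted p = 1.24e-25). Exons of Ccne2 overlap 609 bases of Ints8 on the other strand. Ints8 holds 127% as many counts as Ccne2 and had a log2 fold change of -0.24 (SE 0.08), and the value of Ccne2 carries the same limit as that of Ccnd3. In CPM per kb of annotated exons Ccne2 exceeded Ccne1 by 2.05 and 1.95 times in unirradiated libraries and by 3.62 and 2.91 times in irradiated ones. By the longest annotated transcript these values were 1.79 and 1.71 times, and 3.16 and 2.54 times.

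Cdk2 (ENSMUSG00000025358, chromosome 10, 128697939 to 128705031, minus strand), the kinase that cyclins E and A2 activate, changed far less than the E cyclins. It stood at 74.38 and 75.29 CPM before and 58.85 and 57.03 CPM after irradiation. The fall was 1.29-fold (log2 fold change -0.37, SE 0.06, edgeR adjusted p = 1.51e-09), too small to pass against 1.5-fold.

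Cyclin A2, which acts in both S phase and G2, lay between the falling and the rising cyclins. Ccna2 (ENSMUSG00000027715, chromosome 3, 36564865 to 36572150, minus strand) stood at 435.7 and 442.0 CPM in unirradiated and 427.0 and 420.4 CPM in irradiated libraries. The groups do not overlap in CPM, as holds for 78.4% of all tested genes. The log2 fold change was -0.05 (SE 0.03, edgeR adjusted p = 0.143) and turned to 0.0081 when libraries were scaled by their totals alone. The 95% interval of the fold runs from 0.926 to 1.01, which leaves out the 1.75-fold rise of the B cyclins. Exons of Ccna2 overlap 510 bases of Exosc9, which holds 10.6% as many counts.

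Both B cyclins rose, and their fitted folds were equal to 3 digits. Ccnb1 (ENSMUSG00000041431, chromosome 13, 100778650 to 100786570, minus strand), the main activating subunit of Cdk1 in mitosis, stood at 168.2 and 169.5 CPM in unirradiated and 296.3 and 294.6 CPM in irradiated libraries. Ccnb2 (ENSMUSG00000032218, chromosome 9, 70407692 to 70421547, minus strand), a second B cyclin, stood at 141.5 and 142.1 CPM before and 251.6 and 245.9 CPM after. In both genes the irradiated libraries lie well above the unirradiated ones. Each rose 1.75-fold (log2 fold changes 0.81, SE 0.04 in both, edgeR adjusted p = 4.26e-104 for Ccnb1 and 2.81e-94 for Ccnb2). The named pseudogene copies Ccnb1-ps and Ccnb2-ps held 0.175% and 1.47% as many counts as their parents, and Ccnb2-ps did not pass (edgeR adjusted p = 0.687).

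Cdk1 (ENSMUSG00000019942, chromosome 10, 69335146 to 69352938, minus strand), the mitotic kinase itself, stood at 198.4 and 211.7 CPM in unirradiated and 296.9 and 287.8 CPM in irradiated libraries. It rose 1.43-fold (log2 fold change 0.51, SE 0.04, edgeR adjusted p = 8.54e-45), less than its cyclin partners and too little to pass against 1.5-fold. Of all tested genes 76.3% had a lower log2 fold change than Cdk1 and 83.2% a lower one than Ccnb2. Ccnd1 and Ccne1 stand farther out at the other end of that order.

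**Figure D2:**
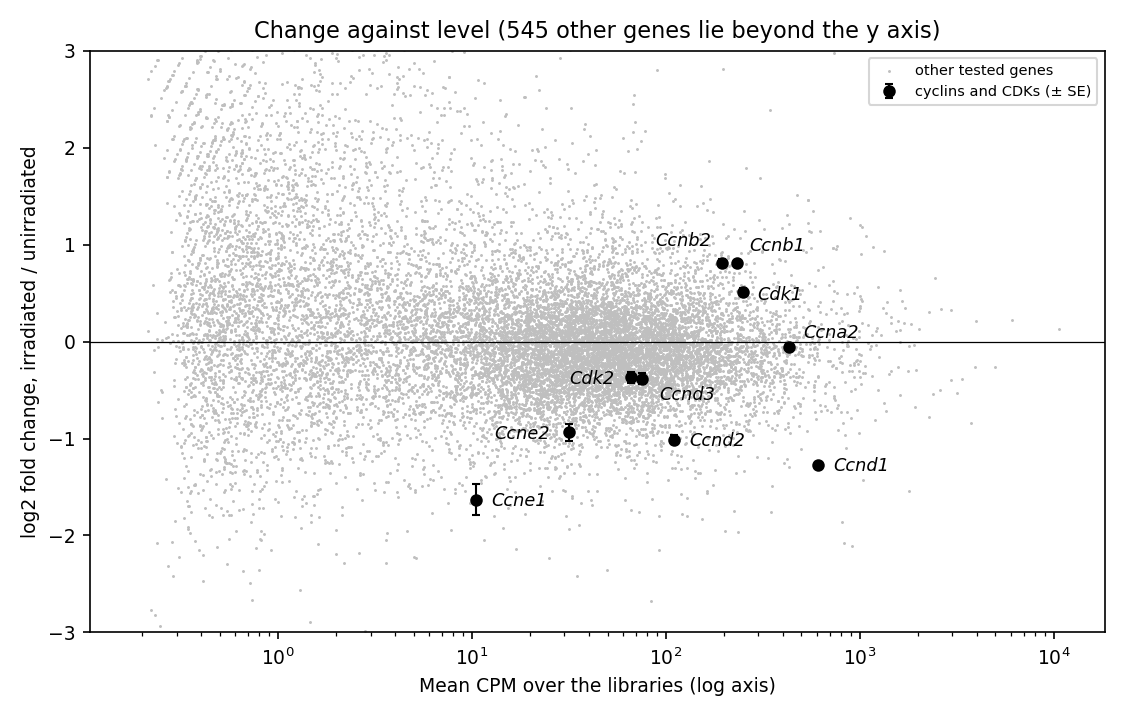
Log2 fold change (y axis) against mean CPM on a log axis (x axis) for each tested gene (grey) and for the 10 cyclins and CDKs (black, bars are SE). Ccne1 and Ccnd1 lie near the lower edge of the cloud at their levels and Ccna2 at zero, and 545 other genes lie outside the range of the y axis.

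Because Ccnb1, Ccnb2 and Cdk1 moved together, their promoters are shown beside those of Ccne1 and Cdk2, which fell. Transcription of mitotic genes is known to depend on NF-Y, which binds the CCAAT box, and on the cell cycle genes homology region (CHR), which the MuvB complex binds, while E2F sites are known from genes of S phase entry. RefSeq promoter windows (GRCm38.p6) were found for 6 of the 10 genes, with Ccnd1, Ccnd2, Ccne2 and Ccna2 not among them. Each window holds 250 bases before and 30 bases from the annotated start, is read 5′ to 3′ on the gene's own strand, and the 5 windows shown are all on the minus strand of the chromosome. They are Ccnb1 at chr13:100786457-100786736, Ccnb2 at chr9:70421525-70421804, Cdk1 at chr10:69352883-69353162, Ccne1 at chr7:38107461-38107740 and Cdk2 at chr10:128705022-128705301. Capitals mark matches on either strand to CCAAT, to the CHR TTTGAA, to the CHR variant TTTAAA, and to the E2F sites TTTCCCGC, TTTGGCGC, TTTCGCGC or TTTGCCGC.
Ccnb1: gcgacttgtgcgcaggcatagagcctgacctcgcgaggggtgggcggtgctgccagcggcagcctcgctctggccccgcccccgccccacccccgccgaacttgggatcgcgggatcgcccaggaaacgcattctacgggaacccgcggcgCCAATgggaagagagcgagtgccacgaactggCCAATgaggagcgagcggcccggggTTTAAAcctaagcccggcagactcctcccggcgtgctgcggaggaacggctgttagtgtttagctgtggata
Ccnb2: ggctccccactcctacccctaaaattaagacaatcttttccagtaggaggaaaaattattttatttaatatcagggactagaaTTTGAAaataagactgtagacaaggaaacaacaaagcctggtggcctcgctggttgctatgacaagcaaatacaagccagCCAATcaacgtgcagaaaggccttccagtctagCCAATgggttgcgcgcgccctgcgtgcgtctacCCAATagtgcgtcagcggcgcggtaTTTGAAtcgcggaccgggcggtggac
Cdk1: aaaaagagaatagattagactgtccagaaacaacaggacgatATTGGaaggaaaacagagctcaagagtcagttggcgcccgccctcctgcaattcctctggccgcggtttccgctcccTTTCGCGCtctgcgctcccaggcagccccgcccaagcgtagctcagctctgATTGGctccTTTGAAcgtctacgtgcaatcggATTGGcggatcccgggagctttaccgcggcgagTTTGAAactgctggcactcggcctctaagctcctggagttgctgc
Ccne1: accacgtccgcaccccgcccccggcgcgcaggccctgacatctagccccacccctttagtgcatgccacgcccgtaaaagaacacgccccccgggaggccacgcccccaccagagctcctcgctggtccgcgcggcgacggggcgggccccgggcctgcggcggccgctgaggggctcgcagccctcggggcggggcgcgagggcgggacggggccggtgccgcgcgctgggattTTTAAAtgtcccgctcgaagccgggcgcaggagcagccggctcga
Cdk2: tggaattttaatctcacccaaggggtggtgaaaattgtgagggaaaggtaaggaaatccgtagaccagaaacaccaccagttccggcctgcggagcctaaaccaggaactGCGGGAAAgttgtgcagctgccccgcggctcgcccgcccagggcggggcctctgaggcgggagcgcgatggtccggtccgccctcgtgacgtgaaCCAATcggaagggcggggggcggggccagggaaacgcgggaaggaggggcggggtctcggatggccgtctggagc

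The window of Ccnb1 held 2 CCAAT boxes, and those of Ccnb2 and Cdk1 held 3 each. The 32851 windows available, which do not cover every gene, held at least 1 in 36.1%, at least 2 in 11.1% and at least 3 in 3.19% of cases. Neighbouring boxes on the same strand began 32 bases apart in Ccnb1, 33 and 33 bases apart in Ccnb2, and 128 and 32 bases apart in Cdk1. A pair of boxes on 1 strand that begin 32 or 33 bases apart, a spacing looked up after these windows had been read, was present in 0.472% of all windows. The CHR was matched 2 times in Ccnb2 and 2 times in Cdk1 (at least 1 match in 17.2% of all windows) and its variant 1 time each in Ccnb1 and Ccne1 (12.8%). An E2F site was matched in Cdk1 and in Cdk2 (2.12%), and Cdk2 also held 1 CCAAT box. Of the windows of Ccnd3 (2 annotated starts, not printed), 1 held a single CCAAT box. These matches describe letters, not binding, and no match says only that these letters are not in the window.

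**Figure D3:**
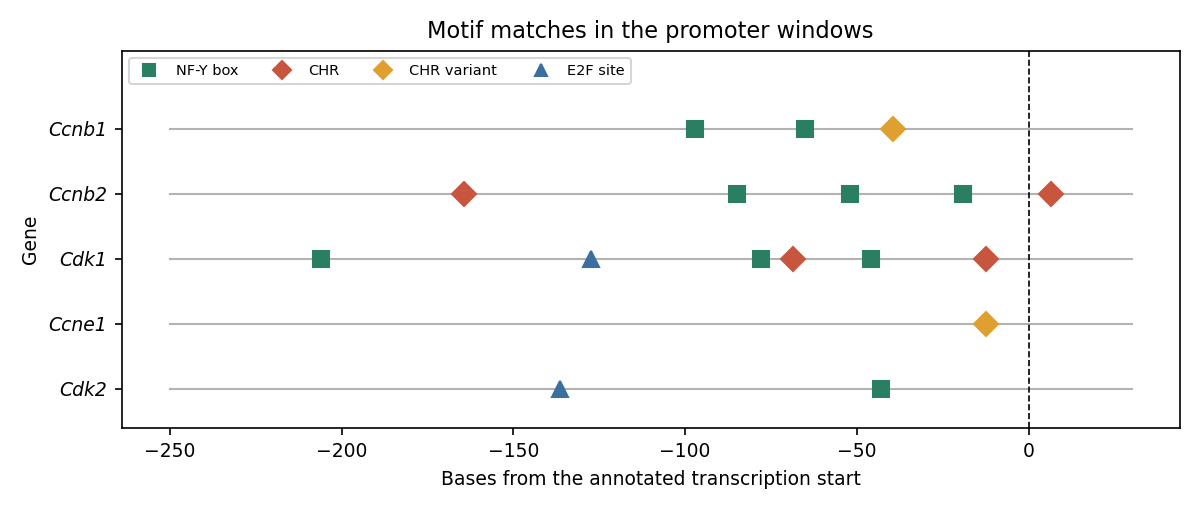
Position of each motif match (x axis, bases from the RefSeq transcription start, dashed line) in the promoter windows of 5 genes (rows); squares are CCAAT boxes, diamonds the CHR and its variant, triangles E2F sites. The 3 genes that rose hold 2 or 3 squares upstream of the start, Cdk2 holds 1 and Ccne1 none. The 5 genes were picked by their change, Ccnd3 is not drawn, and a link between motifs and change was not tested.

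Levels of different genes were set beside each other in CPM per kb of annotated exons. In unirradiated cells the order ran from Ccnd1 (183 ± 1.33, SD, n = 2) through Ccna2 (107 ± 1.11), Ccnb2 (92.6 ± 0.278), Cdk1 (41.6 ± 1.90), Ccnb1 (40.0 ± 0.205), Ccnd2 (15.7 ± 0.0777), Cdk2 (12.03 ± 0.103), Ccne2 (11.96 ± 0.0670) and Ccnd3 (9.73 ± 0.429) to Ccne1 (5.99 ± 0.231). Cdk2 and Ccne2 overlapped in their libraries, and Cdk1 and Ccnb1 were apart by less than the spread of Cdk1. In irradiated cells Ccnb2 came first (162 ± 2.67 CPM per kb), followed by Ccna2 (104 ± 1.14), Ccnd1 (75.9 ± 0.357), Ccnb1 (70.1 ± 0.286) and Cdk1 (59.3 ± 1.30), and Ccne1 was again last (1.94 ± 0.336). With the length of the longest annotated transcript in place of all exons, Ccnd1 stayed first in unirradiated and Ccnb2 in irradiated cells, Ccna2 second and Ccne1 last in both, whereas Ccnb1 and Cdk1 in unirradiated and Ccnb1 and Ccnd1 in irradiated cells changed places. Ccnd2, Ccnd3 and Ccne2 also changed rank.

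As a whole the cyclin pool changed more in its makeup than in its summed CPM per kb. That sum is relative to the library, and the amount per cell was not measured. The 8 cyclins summed to 464.5 and 469.5 CPM per kb in unirradiated and 438.2 and 433.2 CPM per kb in irradiated libraries. The D cyclins fell from 44.7% and 44.7% of this sum to 20.8% and 21.1%, and the E cyclins from 3.82% and 3.87% to 1.80% and 1.97%. The B cyclins went from 28.5% and 28.3% to 53.5% and 53.2%, and Ccna2 from 23.0% and 23.1% to 23.9% and 23.8%. For each class both irradiated libraries lie on the same side of both unirradiated ones. These shares are descriptions without a test.

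Ratios within a library do not depend on how libraries are scaled. B cyclins exceeded E cyclins 7.46 and 7.32 times in unirradiated libraries and 29.8 and 27.1 times in irradiated ones, in CPM per kb, so the ratio grew 3.84-fold. Ccnb2 exceeded Ccnb1 by 2.32 and 2.31 times before and 2.34 and 2.30 times after, ranges that overlap. Ccna2 exceeded Ccnb1 by 2.67 and 2.69 times before and 1.49 and 1.47 times after. Cdk2 stood at 0.297 and 0.282 of Cdk1 before and at 0.157 and 0.157 after, a change to 0.543 of the earlier ratio. Of the 7 ratios computed, 6 did not overlap between the groups. This adds little, since all 10 genes are themselves apart between the groups, as are 78.4% of all tested genes. With 2 libraries in each group an exact permutation test of a single ratio cannot go below a two-sided p of 0.333, so none was run.

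**Figure D4:**
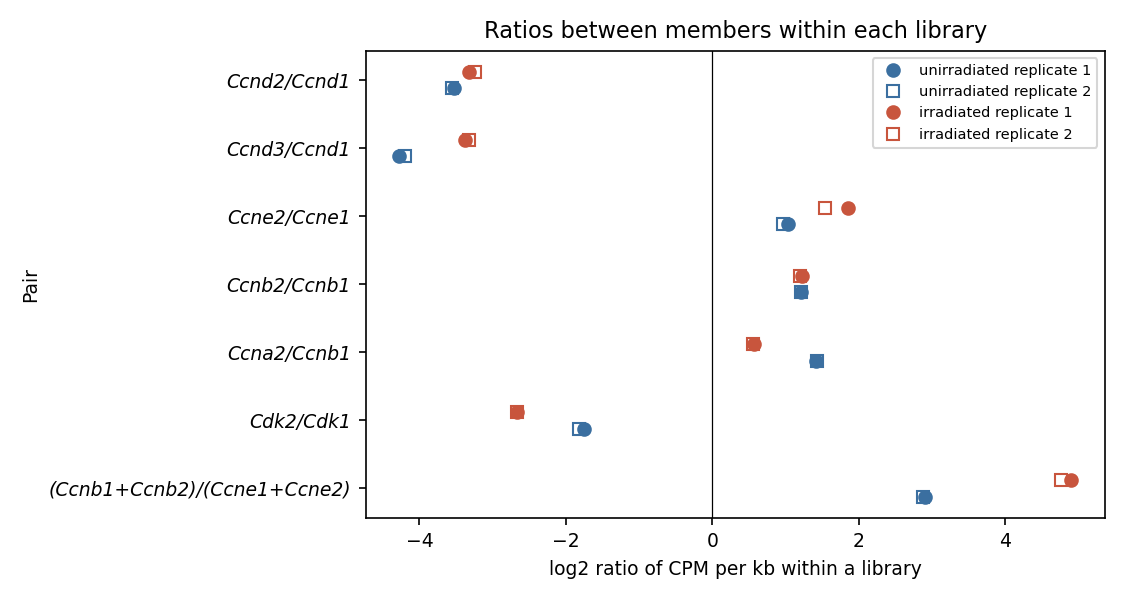
Log2 ratio of CPM per kb between named pairs (rows) within each library; blue is unirradiated, red irradiated, circles replicate 1 and squares replicate 2. Only Ccnb2/Ccnb1 overlaps between the groups, and the ratio of B to E cyclins moved by 1.94 on the log2 scale.

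The gene whose profile over the 4 libraries lay nearest to that of Ccnb2, the gene that rose most, was Tmem106a, followed by Scpep1, a serine carboxypeptidase-like gene, and Ccnb1. Their Euclidean distances in log2(CPM + 1), each gene centred on its own mean, were 0.0110, 0.0174 and 0.0182 among 10499 genes of at least 5 CPM. Nearest to Ccne1, which fell most, were Rrp12, a ribosome biogenesis factor (0.0350), Smco4 (0.0706) and Bcat1, a branched-chain amino acid transaminase (0.0897). With 4 libraries in 2 groups, such likeness mostly says that genes share the size of their change.

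Of the kinase partners of the D cyclins, Cdk4 fell and Cdk6 did not pass the test. Cdk4 went from 371 ± 0.656 to 282 ± 11.2 CPM (SD, n = 2), a 1.31-fold fall (log2 fold change -0.39, SE 0.03, edgeR adjusted p = 2.47e-31), and its exons overlap those of Tspan31, which holds 11.1% as many counts. Cdk6 had 253 ± 11.2 and 243 ± 5.71 CPM (log2 value -0.06 with SE 0.04, edgeR adjusted p = 0.170). Its value turned to 0.0031 on scaling by library totals and passed at -0.12 without unirradiated replicate 1 (adjusted p = 0.0160). CDKs outside transcription (12 tested, Cdk4 and Cdk6 included) fell in 6 cases and rose in 4 (median log2 fold change -0.11, against 0.01 over all tested genes). Over all tested genes 30.3% fell and 30.4% rose, and among those that reached 10 CPM 43.2% fell and 29.5% rose. Cdk18 and Cdk14, kinases of the PCTAIRE and PFTAIRE branches, fell 1.64-fold and 1.59-fold. Cdk15 and Cdkl1 were below the filter.

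Other cyclins and close relatives went both ways, with 3 of 10 tested genes higher and 4 lower (median log2 fold change -0.11). This split is near that of all tested genes (30.4% higher, 30.3% lower) and of genes that reached 10 CPM (29.5% and 43.2%). Ccng2, an unconventional cyclin linked to cell cycle exit, rose 2.35-fold from 27.3 ± 2.92 to 64.2 ± 0.902 CPM (SD, n = 2; log2 fold change 1.23, SE 0.07, edgeR adjusted p = 2.05e-62). Cables2, which encodes a protein that interacts with CDKs, fell with a log2 fold change of -0.59. Ccnb3 was below the filter, and Ccna1 and Ccnjl were not analysed here. The cyclins and CDKs that act in transcription moved least of all the lists by median absolute log2 fold change (0.09). Of 16 tested genes, 9 did not pass, 5 fell and 2 rose. Cdk19 of the Mediator kinase module rose 1.55-fold, and Cdk10, the partner of cyclin M, fell 1.36-fold.

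The tested CDK inhibitors all changed, with 4 of 6 genes higher and 2 lower (median log2 fold change 0.35). A change was called for 60.7% of all tested genes (30.4% higher, 30.3% lower). It was called for 72.7% of those that reached 10 CPM (29.5% higher, 43.2% lower). The 4 include Cdkn1c at a mean of only 0.291 CPM, and 3 were higher with a filter of at least 1 CPM in 2 libraries. Cdkn1b, which encodes the inhibitor p27 of cyclin E and Cdk2, rose 1.43-fold from 89.6 ± 2.13 to 129 ± 2.82 CPM (SD, n = 2; log2 fold change 0.52, SE 0.05, edgeR adjusted p = 9.15e-25). Cdkn1a, which encodes p21, rose 1.13-fold (0.18, SE 0.05, adjusted p = 1.22e-03). A fitted fold of this size cannot pass against 1.2-fold (edgeR glmTreat adjusted p = 0.983). Cdkn3, a phosphatase that acts on CDKs, rose 1.76-fold, and Cdkn2d, an inhibitor of Cdk4 and Cdk6, fell 1.68-fold. Cdkn2a and Cdkn2b were not analysed here.

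Regulators of CDK phosphorylation and CDK-binding proteins rose in 8 of 15 genes and fell in 4 (median log2 fold change 0.10). Among all tested genes 30.4% rose and 30.3% fell, and among those that reached 10 CPM 29.5% rose and 43.2% fell. Mastl, the kinase that restrains the phosphatase opposing Cdk1, rose 2.16-fold from 94.9 ± 2.98 to 205 ± 3.56 CPM (SD, n = 2; log2 fold change 1.11, SE 0.04, edgeR adjusted p = 9.09e-139). Wee1, the kinase that inhibits Cdk1 by tyrosine phosphorylation, rose 1.53-fold (0.61, SE 0.07, adjusted p = 1.57e-16). A list of ubiquitin ligases for cyclins and CDK inhibitors, with partners and regulators, had 6 of 25 genes higher and 11 lower (median -0.08). A change was called for 60.7% of all tested genes and for 72.7% of those that reached 10 CPM. The balance of this list turned to 9 higher and 7 lower on scaling by library totals. It was 9 and 9 with a filter of at least 1 CPM in 2 libraries. Fbxo31, an F-box protein reported to target cyclin D1, rose 1.93-fold (0.95, SE 0.05, adjusted p = 6.53e-74), and Skp2, whose ligase degrades p27, fell 1.52-fold (-0.60, SE 0.06, adjusted p = 7.62e-24).

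Among transcription factors that act on cyclin genes, the E2F and RB family fell in 7 of 13 genes and rose in 3 (median log2 fold change -0.41). The most changed were the repressor-type factors E2f4, which fell 1.83-fold from 123 ± 2.64 to 67.0 ± 3.56 CPM (SD, n = 2), and E2f5, which fell 1.80-fold. E2f5 overlaps 26 bases of 1810022K09Rik, a gene with 230% as many counts. The list of MuvB subunits, B-MYB, FOXM1 and NF-Y had 5 of 10 genes lower and 1 higher (median -0.10). For both lists the shares over all tested genes are 30.3% lower and 30.4% higher. Among genes that reached 10 CPM, as nearly all of these do, they are 43.2% lower and 29.5% higher. The NF-Y subunit genes Nfya and Nfyb fell 1.61-fold and 1.49-fold (log2 fold changes -0.68, SE 0.05, and -0.58, SE 0.08, edgeR adjusted p = 2.10e-41 and 4.03e-13).

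Upstream of the D cyclins, mitogen-linked transcription factors and feedback genes of the ERK pathway fell in 10 of 13 genes and rose in 1 (median log2 fold change -0.59). Over all tested genes 30.3% fell and 30.4% rose, and among those that reached 10 CPM 43.2% fell and 29.5% rose. Etv4, an ETS factor induced by ERK signalling, fell 5.11-fold from 83.2 ± 3.58 to 16.3 ± 0.0873 CPM (SD, n = 2). Fosl1, the AP-1 subunit FRA1, fell 3.47-fold from 143 ± 6.40 to 41.1 ± 2.80 CPM (log2 fold change -1.80, SE 0.06, edgeR adjusted p = 1.48e-225), with 1163 bases of exon shared with Ccdc85b, which holds 55.2% as many counts. Of the 9 lists this one had the lowest median.

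**Figure D5:**
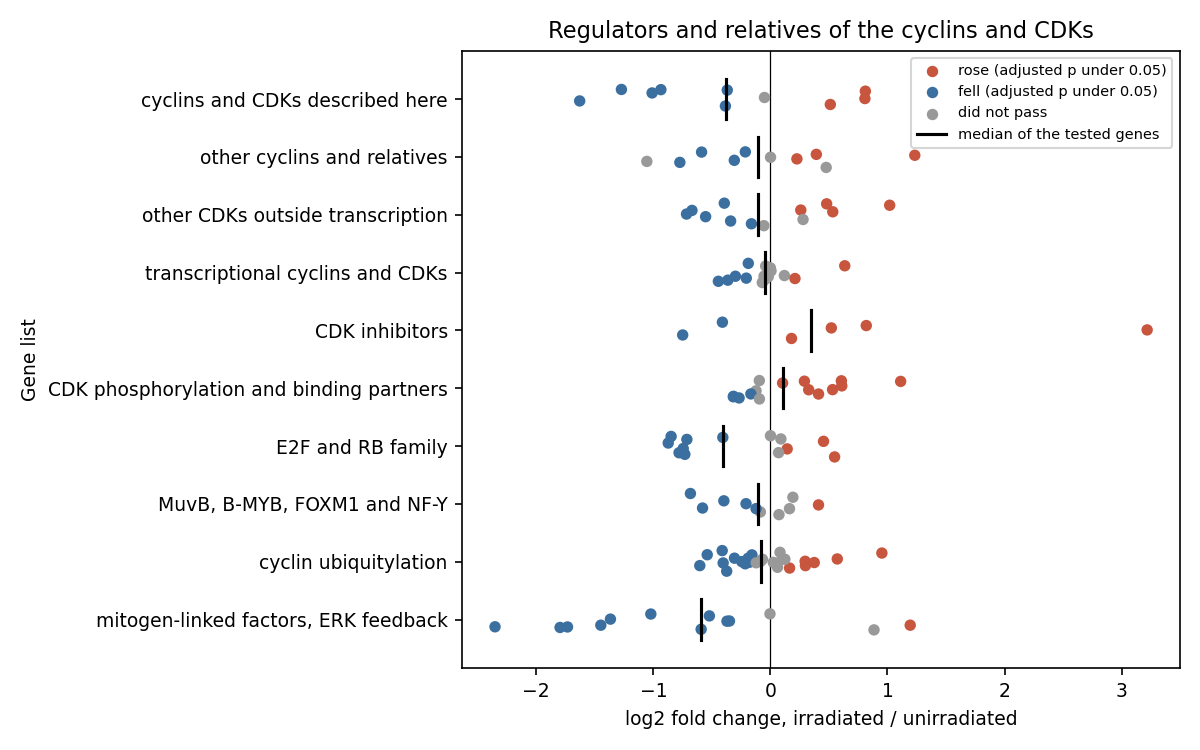
Log2 fold change (x axis) of each tested gene in the 10 cyclins and CDKs and in 9 lists of relatives and regulators (rows); red dots rose, blue dots fell, grey dots did not pass, and black bars are medians. The mitogen-linked list has the lowest median (-0.59) and the CDK inhibitors the highest (0.35).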

How the data were processed

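Messenger RNA was sequenced from 4 libraries of MC38 cells, 2 in each group, from 1 µg of total RNA per the labels' protocols. Per the submitters' processing notes, HTSeq, HISAT2, HISAT and DESeq2 were used with mm10, and no version or role is named. The sources used here give neither a strand setting nor an annotation release. The values deposited by the authors are raw whole-number counts per Ensembl gene, not normalized or pooled. Symbols, coordinates and exons come from GENCODE M21 (GRCm38), possibly another release than the authors used.

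Counts were tested with edgeR 4.0.16 in R 4.3.3 (TMM, filterByExpr, robust glmQLFit, glmQLFTest, irradiation as the only term), with Benjamini-Hochberg adjustment over all 15298 tested genes. CPM are counts per 1000000 of the TMM-scaled library size. Fold changes are edgeR's fitted values, their SE is the size of the log2 value over the root of the F statistic, and 95% intervals are 1.96 SE to either side. Tests against a minimum fold used edgeR's glmTreat. The calculation was tested on simulated counts.

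The cyclins and CDKs and the related lists were chosen with earlier results of these data known. Genes named in the text are the 10 cyclins and CDKs, Cdk4, Cdk6, Cdkn1a and Cdkn1b, the 2 most changed genes of each list (at least 5 CPM, groups not overlapping), the 3 nearest profiles and the highest marker of each list. Other genes were named after their values were seen. One leukocyte marker is not reported here. Alternatives were 2 other scalings, DESeq2 1.42.0, 2 other filters, the replicate block, leaving out each library, and minimum folds of 1.2 and 1.5.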

Additional observations from a re-analysis of the deposited data

How the results depend on the processing

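Each of the 10 genes was refitted under 11 other settings and 1 added after seeing the data, a test against 1.5-fold. The 9 called genes kept direction and call under those 11, the test against 1.2-fold included. Against 1.5-fold the calls of Ccnd3 (-0.38), Cdk1 (0.51) and Cdk2 (-0.37) were lost (adjusted p = 1.0 for each), by the construction of that test. Ccna2 passed under none, and its log2 fold change turned from -0.05 to 0.0081 with library totals. Cdk6 likewise turned to 0.0031. Over all tested genes 9289 changed, against 5978 at 1.2-fold and 2823 at 1.5-fold. Lower genes numbered 4634, 2791 and 912, and higher genes 1911 at 1.5-fold. Libraries with the same replicate number showed no shared deviation from their group means (correlation -0.00454). With 2 libraries in each group this is a single value, and it does not say whether they were handled together. With the replicate block 9026 genes changed, and 9 of the 10 cyclins and CDKs, in the same directions. The lowest depth is that of Ccne1, whose log2 fold change ran from -1.82 to -1.46 when single libraries were left out.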
